A study of Mus musculus with 23 samples.

Results

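Colonies grown from the macrophages of HPV-negative MEER head and neck tumours were compared with the HPV-negative MEER tumour line in culture. The 6 libraries, 3 of colonies and 3 of the line, were chosen by their labels out of 23 bulk mRNA libraries of mouse tumour macrophages, tumour lines and colonies. Each colony library is 1 replicate preparation of what the labels call a macrophage progenitor colony. Macrophages of the gate CD45+CD11b+Gr1-F4/80hi were sorted from subcutaneous tumours of C57/Bl6 mice and kept for 9 days in a haematopoietic stem cell medium from Stem Cell Technologies. The line libraries are aliquots of the HPV-negative MEER cells themselves and are labelled with the same strain, C57/Bl6. Libraries of the sorted macrophages, 3 from HPV-negative MEER tumours and each a pool of 3 to 4 mice, are given as a reference level. Age, sex and any other treatment are not stated in the labels used here, and nothing in them ties a given colony to a given macrophage pool.

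A macrophage is a tissue phagocyte of the myeloid lineage. Its identity is carried by the transcription factor Spi1 (PU.1) and by the receptor for colony-stimulating factor 1, Csf1r, and its surface by the leucocyte antigen CD45 (Ptprc), the integrin CD11b (Itgam) and F4/80 (Adgre1). A colony assay reads the offspring of single cells that divide in culture, so a colony of myeloid progenitors would carry leucocyte genes, and often granule genes such as Mpo. MEER lines descend from mouse oropharyngeal epithelium transformed with oncogenic Ras, and epithelial cells carry keratins, junction proteins and, in the basal layer, the transcription factor p63 (Trp63).

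The deposited values are expected counts per gene. The 3 colony libraries held 47609481, 29471867 and 29311677 counts and the line libraries between 27944725 and 36324706, so that 3 counts correspond to 0.0630 to 0.107 CPM, where CPM is a count scaled to the size of its library. These levels of 3 counts rest on library totals alone. Gene levels below are CPM scaled by TMM factors over the 23 libraries, listed as colony library 1, 2 and 3. They compare a gene between libraries and not with another gene, since CPM does not correct for length. Differences are log2 of colony over line with their standard error, and p-values are from edgeR's quasi-likelihood test on the 6 libraries, adjusted by Benjamini and Hochberg over all genes tested and called under 0.05. In bulk RNA, fewer cells of a type and less RNA per cell cannot be told apart.

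Colony library 1 stood apart from colony libraries 2 and 3 before any comparison with the line. Over 17014 genes, log2 levels correlated at 0.989 between colony libraries 2 and 3, but at 0.928 and 0.916 between them and colony library 1. Colony library 1 was about as near to the sorted macrophages (0.857 to 0.902) as to the line (0.869 to 0.885). Colony libraries 2 and 3 lay nearer to the line (0.911 to 0.938) than to the macrophages (0.718 to 0.788). Results are therefore given with colony library 1 and without it. The colonies were deposited in a second table and the line in the first, so table and group cannot be told apart, and a p-value here speaks for the spread among these libraries alone.

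The genes that define the sort were found in colony library 1 and nearly absent from colony libraries 2 and 3. Ptprc was at 149, 2.72 and 0.392 CPM in the colonies and at 0.0987, 0.117 and 0.0735 CPM in the line, against 482 to 708 CPM in the sorted macrophages. Itgam was at 822, 7.81 and 0.332 CPM in the colonies against 0.230, 0.408 and 0.0980 CPM in the line. Adgre1 was at 1239, 2.84 and 0.0302 CPM, against 0, 0.175 and 0.0245 CPM in the line and 636 to 956 CPM in the macrophages. All of them were abundant in colony library 1, at a few CPM in colony library 2 and under 1 CPM in colony library 3. Csf1r had the same pattern at 558, 5.21 and 0.663 CPM (line 0.221 to 0.379 CPM), as did Spi1 at 122, 2.13 and 0 CPM (line 0.0735 to 0.175 CPM). Fcgr1, the high-affinity receptor for IgG, had 145, 0 and 0 CPM in the colonies and 0.0329 to 0.0735 CPM in the line. The colony label was thus met by the sort's own markers in 1 of the 3 libraries.

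**Figure D1:**
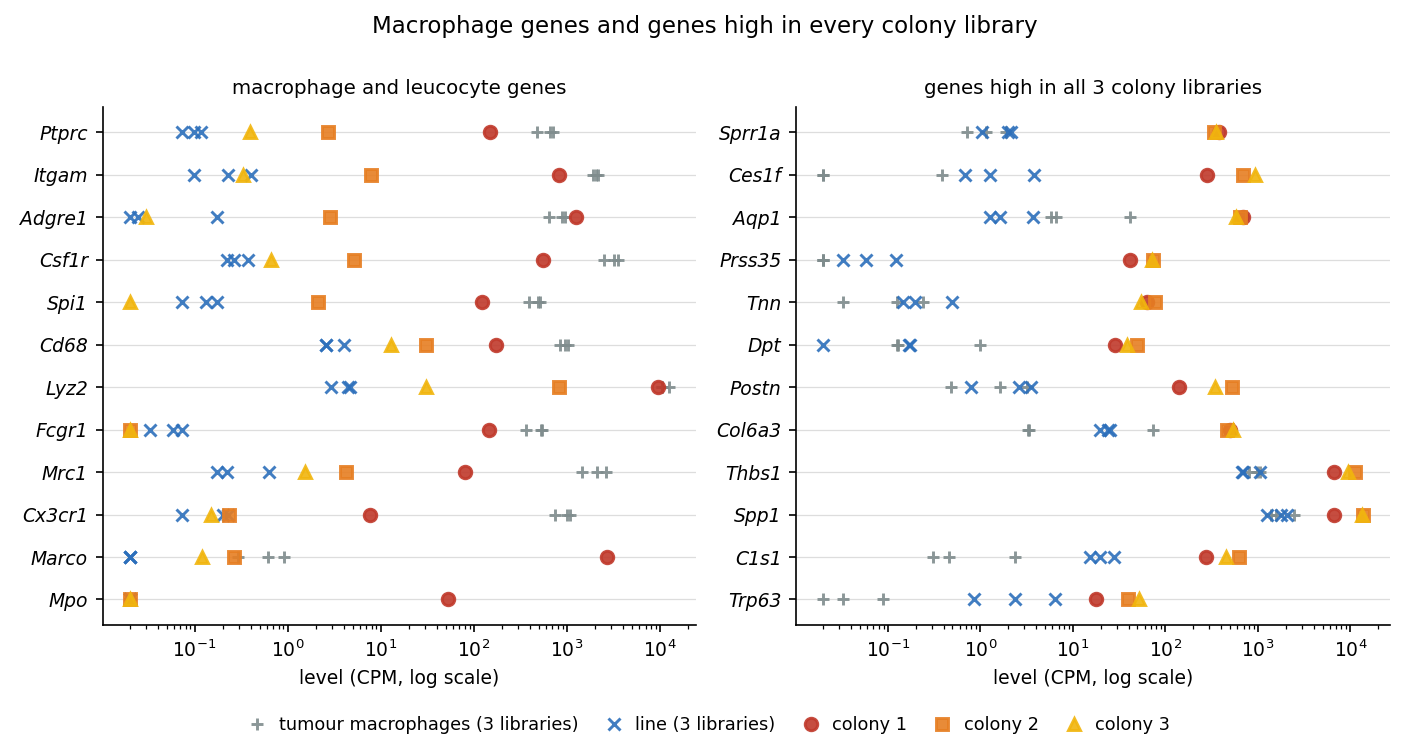
Levels of 24 genes in each library on a log axis of CPM, with the 3 colony libraries as filled symbols, the 3 line libraries as blue crosses and the 3 tumour macrophage libraries as grey plus signs; values under 0.02 CPM are drawn at 0.02. On the left, macrophage and leucocyte genes are high in colony library 1 and near the line in colony library 3, while on the right all 3 colony libraries lie above the line.

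Lysozyme M (Lyz2), an abundant myeloid enzyme, was at 9622, 824 and 30.4 CPM in the colonies, 4.64, 4.46 and 2.89 CPM in the line and 10405 to 12550 CPM in the macrophages (log2 difference 9.83 ± 2.05, adjusted p = 0.0067). Each colony library exceeded every line library, and the colony libraries differed widely among themselves. Cd68, a lysosomal protein of phagocytes, was at 172, 31.03 and 12.9 CPM against 2.6, 2.59 and 3.99 CPM in the line (log2 difference 4.6 ± 0.96, adjusted p = 0.0068). Mrc1, the mannose receptor, was at 79.8, 4.24 and 1.54 CPM against 0.175 to 0.625 CPM (log2 difference 6.46 ± 1.63, adjusted p = 0.014). The receptor Cx3cr1 was at 7.65, 0.234 and 0.151 CPM with 745 to 1092 CPM in the macrophages, and the kinase receptor Mertk at 30.4, 32 and 20.5 CPM against 10.5, 10.3 and 17.2 CPM in the line (log2 difference 1.15 ± 0.29, adjusted p = 0.015). Ccr2, the chemokine receptor of monocytes, was at 57.4, 0.0293 and 0.362 CPM, against 0.0658 to 0.175 CPM in the line.

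Summed over the 23 macrophage identity genes of the list, the colonies held 17188, 1085 and 184 CPM, the line 50.6 to 65.1 CPM and the macrophages 23488 to 30914 CPM. Every colony library stood above every line library for 14 of the 23 and below for 0, beside 30.0% and 30.6% of all genes tested. No count of calls is given for this list: 11 members, among them Adgre1, Spi1, Fcgr1 and Cx3cr1, did not pass the filter on low counts, which drops genes high in 1 library alone. Of the 12 that passed, 5 did so without all 3 line libraries at its minimum, so that they were tested because the colonies were high. The general leucocyte genes had the same shape, with summed levels of 5621, 274 and 195 CPM in the colonies and 168 to 198 CPM in the line. Tyrobp, the signalling adaptor of myeloid receptors, was at 179, 10.7 and 0.452 CPM, with 2 counts in all line libraries together. Ncf1, a subunit of the phagocyte oxidase, was at 183, 3.16 and 0.362 CPM, likewise with 2 counts in the line. Cd53, a tetraspanin of leucocytes, was the exception in being high in all 3 colony libraries, at 165, 95.6 and 128 CPM against 4.77, 7.49 and 10.4 CPM (log2 difference 4.13 ± 0.36, adjusted p = 0.00049).

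The same split showed over genes chosen only by their levels in macrophages and line. At 20 CPM or more in every macrophage library and under 1 CPM in every line library stood 406 genes. Colony library 1 held a median of 22.1% of the macrophage level of these genes, colony library 2 held 0.503% and colony library 3 held 0.105%. The reverse set, at 20 CPM or more in every line library and under 1 CPM in every macrophage library, had 30 genes, of which the colonies held medians of 17.6%, 30.7% and 37.9% of the line level. The size of this second set turned on macrophage library 4: without it 187 genes qualified and the medians were 49.8%, 90.1% and 89.5%.

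**Figure D2:**
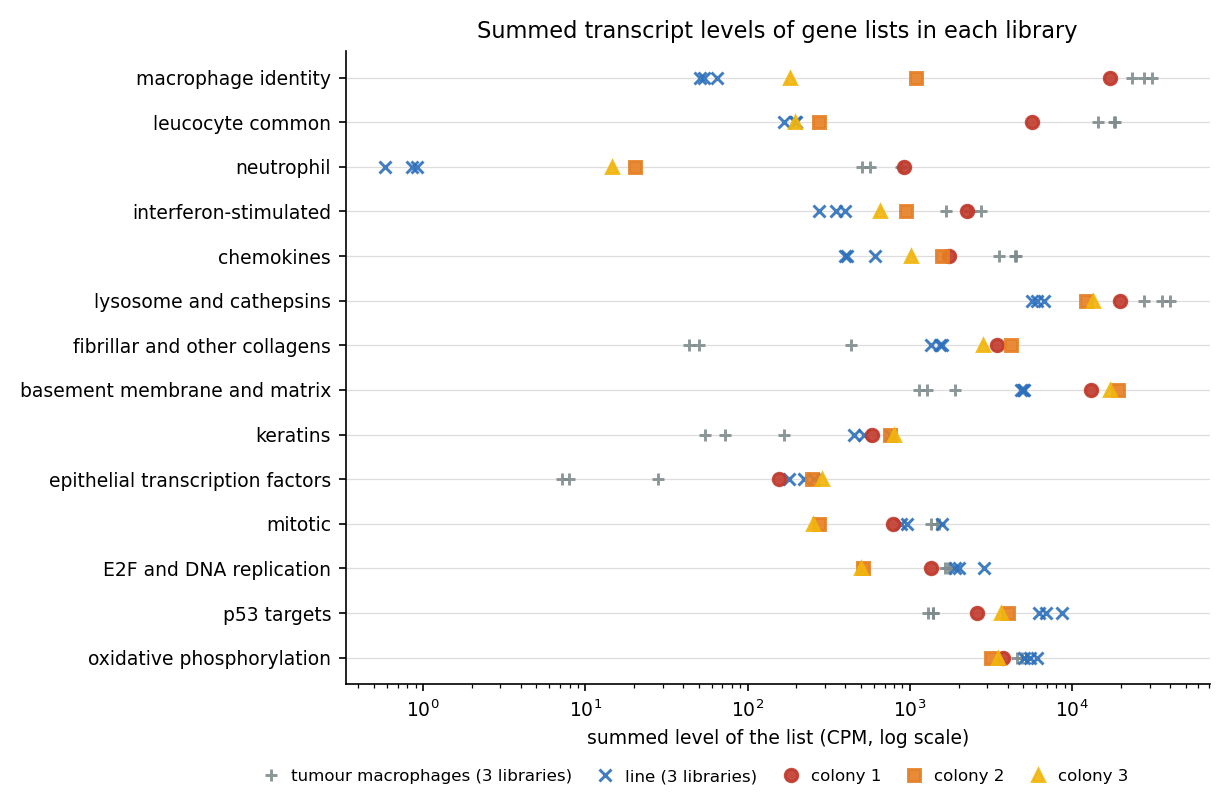
Summed level of 14 gene lists in each library (CPM, log axis), with colonies as filled symbols, line libraries as blue crosses and tumour macrophage libraries as grey plus signs. The macrophage identity sum is 17188, 1085 and 184 CPM in colony libraries 1, 2 and 3, while keratin and matrix sums of all 3 colonies lie near or above the line.

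Granule genes of progenitors were found in colony library 1. Mpo, the myeloperoxidase of granulocyte and monocyte progenitors, was at 53.5, 0 and 0 CPM in the colonies and at 0 in every line and HPV-negative macrophage library. S100a9, a calcium-binding protein of neutrophils and monocytes, was at 127, 0.0877 and 0 CPM, and the neutrophil surface protein Ly6g at 0.273, 0.0585 and 0.151 CPM. Summed over the neutrophil list the colonies held 916, 20.1 and 14.6 CPM, against 0.583 to 0.922 CPM in the line, with most of the level of colony libraries 2 and 3 from Lcn2 (238, 3.01 and 11.2 CPM) and Mmp8 (89.4, 12.1 and 1.48 CPM). The haematopoietic stem and progenitor list summed to 682, 951 and 991 CPM in the colonies and 277 to 362 CPM in the line. A single member reached 767 CPM in a colony library. Of 13 tested members 7 were higher and 2 lower (median log2 difference 1.48), beside 26.0% and 21.9% of all genes tested. Without colony library 1, 8 were higher and 2 lower (median 1.55). In 3 of those tested the 3 line libraries did not all reach the filter's minimum. Hoxa9, given further on with the Hox genes, was among the higher members. The markers Kit and Flt3 were not, with Kit at 0.800, 0 and 0 CPM and Flt3 at 0.255, 0.0585 and 0 CPM. Cd34, a sialomucin of progenitors and of other cells, stood in each colony library under every line library but was not called, at 15.2, 17.02 and 23.5 CPM against 34.3, 30.9 and 24.2 CPM (log2 difference -0.67 ± 0.24, adjusted p = 0.052). T cell genes summed to at most 5.91 CPM in any colony library and natural killer cell genes to at most 2.92 CPM. Of the B cell list, the defining markers Pax5 and Ms4a1 were at most 0 and 0.0545 CPM, while Blnk, an adaptor also used outside B cells, was at 51.1, 59.6 and 87 CPM against 22.7, 13.2 and 15.6 CPM in the line (log2 difference 1.96 ± 0.29, adjusted p = 0.0018).

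Some genes of colony library 1 were also far above the sorted macrophages. Marco, a scavenger receptor, was at 2677, 0.263 and 0.121 CPM in the colonies, at 0.291 to 0.925 CPM in the macrophages and at 0 in the line. Saa3, an acute-phase protein, was at 4036, 1.697 and 10.9 CPM against 0.627 to 1.84 CPM in the macrophages and 1.08 to 1.86 CPM in the line. Acod1, which makes itaconate in activated macrophages, was at 442, 0.0877 and 0 CPM against 23.8 to 38.3 CPM in the macrophages. Xist, the RNA of the inactive X chromosome in female cells, was at 134, 0.409 and 0.271 CPM in the colonies, at 0.0490 to 0.0874 CPM in the line and at 0.0298 to 0.0324 CPM in the macrophages. Colony library 1 was thus alone in this transcript among the 9 libraries.

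Across all genes, 3721 of the 14320 tested were higher in the colonies (26.0%) and 3140 were lower (21.9%), at a median log2 difference of 0.06. Colony and line libraries did not overlap for 30.0% of genes with the colonies above and 30.6% with the line above. Without colony library 1, 4406 of 14600 genes were higher (30.2%) and 4298 lower (29.4%), at a median of 0.03, and these held 95.7% of the genes called higher with it and 99.1% of those called lower. Without line library 2, 2122 were higher and 1918 lower. Of the 3721 higher genes, 808 (21.7%) were above 4 times the line mean in every macrophage library, against 8.29% of all genes tested, and 1226 (33.0%) were below the line mean in every macrophage library. The filter used the colony and line libraries alone. A gene near 0 in the line was thus tested only where the colonies were high, so the 21.7% follows in part from the filter. Of the 3140 lower genes, 2641 (84.1%) were below the line mean in every macrophage library, against 52.9% of all genes tested. The counts over gene lists given further on stand beside these shares. Up to 3 tested members of such a list did not have all 3 line libraries at the filter's minimum and had little room to be called lower.

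Of the 156 genes called among those named in the text, 122 kept their call whichever 1 library was left out. The other 34 lost it without line library 2, and some of them without others: A2m, Atp5o, Cd274, Cdh2, Cdh3, Col4a2, Csf1r, Csf3, Dsp, H2-DMa, Hras, Irf7, Irf9, Isg15, Islr, Itgam, Krt14, Krt83, Lcn2, Mertk, Mmp2, Mrc1, Mx1, Ncf1, Prrx1, Psmb8, Psmb9, Ptprc, Rsad2, Saa3, Spint1, Tslp, Tyrobp and Vim. Their adjusted p with all 6 libraries was 0.00793 or more, against 0.0117 or less for those kept.

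**Figure D3:**
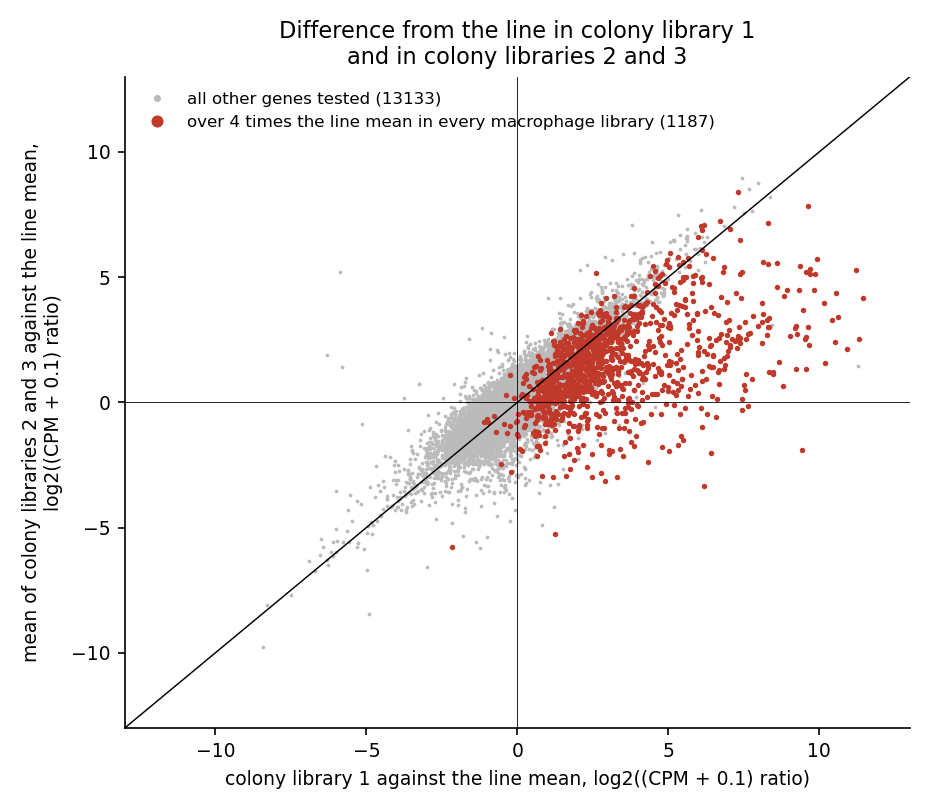
Each point is 1 of the 14320 genes tested, placed by its log2 difference from the line mean in colony library 1 (x axis) and by the mean log2 difference of colony libraries 2 and 3 (y axis), with 0.1 added to each CPM; the diagonal marks equal differences. Genes above 4 times the line mean in every macrophage library (1187, red) lie mostly below the diagonal: 984 of them differ more in colony library 1 than in colony libraries 2 and 3.

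A stricter view took genes at 10 CPM or more in every library of one group and under 0.5 CPM in every library of the other. There were 19 such genes present in colonies only: Gabrg1, Hsd11b1, Plxdc1, Arg1, Slc22a17, Pi16, Rgs11, Dpt, Tnn, Padi2, Srpx2, Prss35, Nlrp2, Ccl7, Prdm1, Mmp12, Amy1, Sprr2a3 and Ifi27l2a. Only 6 were present in the line only: Sis, Car6, Cox6a2, Prr32, Serpinh1 and Fibin. Without colony library 3 there were 36 colony-only genes and without line library 3 there were 30. Taken 1 library at a time, 288, 57 and 39 genes were at 10 CPM or more in colony library 1, 2 and 3 and under 0.5 CPM in every line library. Of these, 243, 27 and 11 were also at 10 CPM or more in every macrophage library, while 16, 20 and 20 were under 0.5 CPM in all of them.

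Among the genes present in all 3 colonies, several were at or near 0 in macrophages as well as in the line. Prss35, a serine protease family member (chr9:86743649-86758443, GRCm38), was at 41.5, 73.95 and 70.9 CPM in the colonies, at 0.0329, 0.0583 and 0.122 CPM in the line and at 0 in the macrophages (log2 difference 9.65 ± 0.46, adjusted p = 0.00013). Tnn, the matrix protein tenascin N, was at 63.2, 77.95 and 54.97 CPM against 0.198, 0.146 and 0.490 CPM in the line and 0.0324 to 0.239 CPM in the macrophages (log2 difference 7.84 ± 0.46, adjusted p = 0.00024). Dpt, the matrix protein dermatopontin, was at 28.4, 49.3 and 38.8 CPM against 0, 0.175 and 0.172 CPM in the line and 0.124 to 0.985 CPM in the macrophages (log2 difference 8.31 ± 0.67, adjusted p = 0.00043). For these genes colony library 1 was on the same level as colony libraries 2 and 3. Ces1f, a carboxylesterase, was at 283, 695 and 938 CPM against 0.691, 1.28 and 3.82 CPM and 0 to 0.388 CPM in the macrophages (log2 difference 8.36 ± 0.82, adjusted p = 0.00057). Aqp1, a water channel, was present in the macrophages at a lower level, 5.86 to 41 CPM. It was at 692, 646 and 581 CPM in the colonies against 1.28, 1.63 and 3.699 CPM in the line (log2 difference 8.19 ± 0.47, adjusted p = 0.00024). Enpp2 (autotaxin), which makes lysophosphatidic acid, was at 103, 51.6 and 641 CPM against 0.198, 0.408 and 0.735 CPM and 0.328 to 4.02 CPM in the macrophages (log2 difference 9.18 ± 1.23, adjusted p = 0.0014), with colony library 3 far above the others. Other genes absent from the line were present in the macrophages. Plxdc1, a plexin-domain membrane protein, was at 16.2, 24.01 and 22.5 CPM against 0.0329, 0.0583 and 0.0735 CPM in the line and 26.7 to 40.9 CPM in the macrophages (log2 difference 8.47 ± 0.40, adjusted p = 0.00013). The interferon-inducible Ifi27l2a was at 79.7, 46.5 and 27.6 CPM against 0.0658, 0.262 and 0.172 CPM and 48.7 to 65.6 CPM in the macrophages (log2 difference 8.25 ± 0.63, adjusted p = 0.00039). Arg1, the arginase of alternatively activated macrophages, was at 49.7, 56.2 and 12.8 CPM in the colonies against 0.230, 0.233 and 0.147 CPM in the line and 1449 to 1900 CPM in the macrophages (log2 difference 7.62 ± 0.70, adjusted p = 0.00052). F13a1, a coagulation factor subunit of monocytes, was instead led by colony library 1, at 343, 10.5 and 13.2 CPM against 0.291 to 0.823 CPM in the line (log2 difference 8.07 ± 1.69, adjusted p = 0.0069).

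Small proline-rich proteins, which are cross-linked into the envelope of stratified epithelium, were chosen after their values were seen. Sprr1a (chr3:92483952-92485895) was at 378, 338 and 352 CPM in the colonies, 1.98, 1.05 and 2.13 CPM in the line and 0.716 to 1.91 CPM in the macrophages (log2 difference 7.71 ± 0.33, adjusted p = 9.3e-05). Sprr2a2 was at 171, 167 and 237 CPM against 4.51, 1.37 and 1.81 CPM in the line (log2 difference 6.25 ± 0.51, adjusted p = 0.00043). The Sprr2a copies are nearly identical, so their counts depend on how reads were shared among them, which does not apply to Sprr1a. In all, 25 genes exceeded their highest level in the 20 libraries of the first table by more than 10-fold in every colony library. They include Ces1f, Tnn, Srpx2 and Gabrg1. Gabrg1, a subunit of a receptor for GABA, was at 18.96, 35.01 and 29.5 CPM against 0.461, 0.204 and 0.465 CPM in the line. Below the lowest of those 20 libraries by more than 10-fold lay Rps27 and Mrpl23, ribosomal proteins of the cytosol and the mitochondrion. Rps27, which has many near copies in the genome, was at 1.05, 0 and 0 CPM against 25.2, 35.9 and 45.3 CPM in the line. Mrpl23 was at 0.945, 0.556 and 0.543 CPM against 12.9, 13.6 and 13.7 CPM. A difference between the 2 tables cannot be told apart from one between the groups.

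Keratins of the line were present in all colonies. Krt8 was at 165, 179 and 213 CPM in the colonies and 159.9, 134 and 240.4 CPM in the line (log2 difference 0.08 ± 0.23, adjusted p = 0.8). Its partner Krt18 was at 142, 141 and 178 against 195, 166 and 223 CPM (log2 difference -0.32 ± 0.18, adjusted p = 0.17). In both keratins the groups overlapped, and in the macrophages Krt8 was at 13.4 to 58.99 CPM and Krt18 at 10.6 to 39.8 CPM. Krt7 was higher, at 213, 322 and 292 against 76.8, 65.6 and 126 CPM (log2 difference 1.65 ± 0.28, adjusted p = 0.003). The basal keratin Krt14 was also higher, at 5.09, 7.22 and 9.41 CPM against 3.19, 2.24 and 2.08 CPM (log2 difference 1.55 ± 0.34, adjusted p = 0.0086), and its partner Krt5 was at 0.327, 2.08 and 1.72 CPM with 4 counts in the 3 line libraries together. Of 12 tested keratins, 4 were higher and 0 lower in the colonies, with a median log2 difference of 0.20. Without colony library 1, 5 of 12 were higher and 0 lower (median 0.31). The share higher with all 6 libraries is near that over all genes tested, 26.0%, while 21.9% of all genes tested were lower. Without colony library 1, 30.2% of all genes tested were higher and 29.4% lower. Trp63, the transcription factor of basal squamous cells, was at 17.9, 39.4 and 52.2 CPM against 0.856, 2.36 and 6.39 CPM in the line and 0 to 0.0895 CPM in the macrophages (log2 difference 3.52 ± 0.73, adjusted p = 0.0065). Ehf, another epithelial factor, was at 6.54, 18.2 and 29.6 CPM against 0.559, 0.874 and 1.32 CPM (log2 difference 4.3 ± 0.61, adjusted p = 0.0017), while Klf5 was at 16.2, 24.7 and 30.1 CPM against 54.4, 50.2 and 49.6 CPM (log2 difference -1.1 ± 0.24, adjusted p = 0.0074). Of 13 tested epithelial transcription factors, 3 were higher and 2 lower (median log2 difference 0.38), beside 26.0% and 21.9% of all genes tested. Without colony library 1, 5 of 13 were higher and 3 lower (median 0.46), beside 30.2% and 29.4%.

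Epcam and Cdh1, junction genes that define epithelium, were low in line and colonies alike, while the junction and surface list as a whole summed to 826, 1191 and 1427 CPM in the colonies and 988 to 1173 CPM in the line. Epcam, the epithelial adhesion molecule, was at 0.0987, 0.0291 and 0.0245 CPM in the line and 0.291, 0.117 and 0.271 CPM in the colonies. Cdh1 (E-cadherin) was at 2.04, 1.399 and 2.499 CPM in the line and 4.25, 2.399 and 8.26 CPM in the colonies, against 44.5 to 66.4 CPM in the macrophages. Junction and surface genes of epithelium had 18 tested members, of which 6 were higher and 2 lower (median log2 difference 0.64), and without colony library 1 7 of 18 were higher and 3 lower (median 0.66). The share higher with all 6 libraries is near that over all genes tested, 26.0%, while 21.9% of all genes tested were lower. Spint1, a protease inhibitor, was higher at 12.1, 1.23 and 0.935 CPM against 0.296, 0.146 and 0.441 CPM (log2 difference 4.05 ± 1.11, adjusted p = 0.02), led by colony library 1. Pkp3, a desmosomal plaque protein, was higher at 18.8, 11.1 and 13.2 CPM against 1.32, 0.729 and 1.94 CPM (log2 difference 3.46 ± 0.44, adjusted p = 0.0011). Cdh3 (P-cadherin) was lower, at 9.24, 21.9 and 11.9 against 24.6, 36.8 and 33.04 CPM (log2 difference -1.11 ± 0.34, adjusted p = 0.029). The desmosomal protein Dsp was lower too, at 1.33, 2.25 and 5.398 against 16.03, 6.27 and 8.06 CPM (log2 difference -1.75 ± 0.58, adjusted p = 0.039).

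Among the genes of mesenchymal transition, 3 of 15 tested were higher and 6 lower (median log2 difference -0.40), beside 26.0% and 21.9% of all genes tested. Without colony library 1, 5 of 15 were higher and 6 lower (median -0.37), beside 30.2% and 29.4%. Snai2, a repressor of epithelial genes, was the member furthest below the line, at 7.22, 17.6 and 15.2 CPM against 144, 121 and 77.3 CPM (log2 difference -3.08 ± 0.38, adjusted p = 0.0011). N-cadherin (Cdh2) was at 58.7, 110.1 and 96.8 against 190.4, 177 and 133 CPM (log2 difference -0.90 ± 0.26, adjusted p = 0.023). Vimentin (Vim) was at 1081, 1056 and 1143 against 1583, 1966 and 2269 CPM (log2 difference -0.80 ± 0.21, adjusted p = 0.015). Prrx1, a mesenchymal homeobox factor, was at 8.65, 19.7 and 31.1 against 37.6, 48.3 and 50.05 CPM (log2 difference -1.18 ± 0.41, adjusted p = 0.046). Tgfbi, a matrix protein induced by TGF-beta, was higher at 280.1, 101 and 95.2 against 9.41, 6.18 and 9.48 CPM (log2 difference 4.28 ± 0.50, adjusted p = 0.00096), with 4635 to 5176 CPM in the macrophages. Zeb1, another repressor of epithelial genes, was higher as well, at 65.2, 103 and 112 against 50.4, 44.7 and 39.98 CPM (log2 difference 1.06 ± 0.23, adjusted p = 0.0073).

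Matrix and matricellular genes included some of the most abundant transcripts that were higher in all 3 colonies. Thbs1 (thrombospondin 1) was at 6590, 11141 and 9441 CPM in the colonies, 668, 699 and 1049 CPM in the line and 801 to 1056 CPM in the macrophages (log2 difference 3.51 ± 0.33, adjusted p = 0.00052). Spp1 (osteopontin) was at 6709, 13619 and 13508 CPM against 1244, 1768 and 2065 CPM and 1376 to 2433 CPM in the macrophages (log2 difference 2.75 ± 0.37, adjusted p = 0.0014). Tnc (tenascin C) was at 839, 1182 and 1125 CPM against 178, 205 and 123 CPM and 1.65 to 39.2 CPM in the macrophages (log2 difference 2.66 ± 0.25, adjusted p = 0.00054). No line or macrophage library reached a colony library in Thbs1, Spp1 and Tnc. Counted over the basement membrane and matrix genes, 11 of 24 tested members were higher and 0 lower, at a median log2 difference of 0.97, and without colony library 1 15 of 25 were higher and 1 lower (median 1.17).

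Among collagens, Col6a3 was at 500, 461 and 539 CPM in the colonies against 24.9, 23.9 and 19.6 CPM in the line (log2 difference 4.48 ± 0.19, adjusted p = 9.3e-05). Col3a1 was at 192, 855 and 134 CPM against 5.07, 20.8 and 26.9 CPM (log2 difference 4.5 ± 0.90, adjusted p = 0.0057), with colony library 2 far above the others, and Col1a1 at 334, 389 and 195 CPM against 54.9, 106 and 108 CPM (log2 difference 1.8 ± 0.34, adjusted p = 0.0049). Col4a2, of the basement membrane, was lower at 76.3, 63.3 and 65.7 against 116, 89.9 and 92.6 CPM (log2 difference -0.51 ± 0.18, adjusted p = 0.047). Of 17 tested collagen genes, 8 were higher and 1 lower in the colonies, with a median log2 difference of 0.59, and without colony library 1 8 of 17 were higher and 2 lower (median 0.58). Serpinh1, the collagen chaperone HSP47, went the other way and is given with the genes of the line.

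Of the fibroblast and mural cell markers, Postn (periostin) was at 141, 528 and 347 CPM against 0.790, 3.56 and 2.65 CPM (log2 difference 7.19 ± 0.73, adjusted p = 0.00064). The receptor Pdgfra was at 9.25, 22 and 12.7 CPM against 2.77, 3.15 and 4.41 CPM (log2 difference 2.1 ± 0.38, adjusted p = 0.0039). Thy1, Lum and Fap, defining markers of fibroblasts, were near 0, at no more than 0.255, 0.364 and 0.164 CPM in any colony library. Fibroblast and mural cell markers had 10 tested members, of which 6 were higher and 0 lower (median log2 difference 1.95), and without colony library 1 6 of 10 were higher and 0 lower (median 2.02). In 3 of those tested the 3 line libraries did not all reach the filter's minimum. The list's part in the matrix results was not tested.

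Among the matrix protease and plasminogen genes, 11 of 19 tested were higher and 3 lower, and the median log2 difference was 1.36, and without colony library 1 12 of 19 were higher and 3 lower (median 1.6). Mmp12, the macrophage elastase, was at 60.5, 299 and 57.3 CPM against 0.296, 0.379 and 0.196 CPM in the line and 254 to 334 CPM in the macrophages (log2 difference 8.91 ± 0.91, adjusted p = 0.00064), and was highest in colony library 2. Mmp8, a collagenase stored by neutrophils, was at 89.4, 12.1 and 1.48 CPM with 2 counts in all line libraries. Mmp13, a collagenase, was at 56.1, 58.2 and 129 CPM against 1.91, 2.86 and 3.04 CPM (log2 difference 4.98 ± 0.42, adjusted p = 0.00045). Mmp3, a stromelysin, was at 17.4, 11.3 and 40.4 CPM against 0.494, 0.787 and 1.81 CPM, with 0.374 to 0.486 CPM in the macrophages (log2 difference 4.48 ± 0.67, adjusted p = 0.0019). Serpine2, an inhibitor of thrombin and plasminogen activators, was lower at 1.11, 0.439 and 2.17 against 15.6, 10.8 and 15.5 CPM (log2 difference -3.47 ± 0.56, adjusted p = 0.0025). Adam12, another metalloprotease family member, was lower at 1.05, 2.28 and 2.38 against 38.3, 14.7 and 6.57 CPM (log2 difference -3.38 ± 0.68, adjusted p = 0.0058).

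Interferon-stimulated genes were higher as a group. These genes answer type I and type II interferons, the first through a factor complex that holds Stat2 and Irf9 and binds a repeat of GAAA in their promoters. The list members Ifit3, Isg15 and Stat2, and the class I light chain B2m, were each called higher in the colonies. Their patterns across the colony libraries differed. Each holds such a repeat, and for that reason their promoters are shown. They are the 250 bases before the start of the gene in RefSeq on GRCm38.p6, read on the strand of the gene, with matches to GAAA followed by any 2 bases and GAAA again on either strand in capitals.
Ifit3, chr19:34583279-34583528, plus strand: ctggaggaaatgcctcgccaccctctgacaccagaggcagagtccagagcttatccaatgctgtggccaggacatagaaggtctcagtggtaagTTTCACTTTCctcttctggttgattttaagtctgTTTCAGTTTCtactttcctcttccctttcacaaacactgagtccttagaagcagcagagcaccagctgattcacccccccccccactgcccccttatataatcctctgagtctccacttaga
Isg15, chr4:156200819-156201068, minus strand: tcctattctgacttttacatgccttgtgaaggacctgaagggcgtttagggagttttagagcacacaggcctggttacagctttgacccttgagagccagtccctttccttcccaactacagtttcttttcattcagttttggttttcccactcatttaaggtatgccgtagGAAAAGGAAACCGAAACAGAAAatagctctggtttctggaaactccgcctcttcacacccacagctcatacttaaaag
Stat2, chr10:128270248-128270497, plus strand: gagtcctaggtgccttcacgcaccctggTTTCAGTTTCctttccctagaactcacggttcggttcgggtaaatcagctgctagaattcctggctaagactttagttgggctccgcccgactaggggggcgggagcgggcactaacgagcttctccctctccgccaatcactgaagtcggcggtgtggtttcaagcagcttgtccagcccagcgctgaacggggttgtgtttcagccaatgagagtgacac
B2m, chr2:122147437-122147686, plus strand: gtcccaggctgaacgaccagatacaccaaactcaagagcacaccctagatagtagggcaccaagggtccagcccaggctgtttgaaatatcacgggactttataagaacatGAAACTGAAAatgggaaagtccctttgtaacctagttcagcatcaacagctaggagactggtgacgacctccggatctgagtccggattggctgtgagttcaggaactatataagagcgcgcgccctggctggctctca

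Promoters were searched over 300 bases, from 250 before to 50 after the start, for GAAA followed by any 2 bases and GAAA again. These letters stood in a promoter of 1079 of 27025 mouse genes (3.99%). Among the list members they stood in 14 of the 23 that had a promoter to search (60.9%). A match describes the letters only; the 3 matches of Isg15 overlap. Counted over the interferon-stimulated genes, 24 of 27 tested members were higher and 0 lower, at a median log2 difference of 2.18. Without colony library 1, 23 of 27 were higher and 0 lower (median 1.32). Ifit3, an antiviral RNA-binding protein, was at 94.8, 89.7 and 57.4 CPM in the colonies, 9.38, 8.74 and 19.03 CPM in the line and 36.8 to 75.99 CPM in the macrophages (log2 difference 2.73 ± 0.37, adjusted p = 0.0014). Stat2 was at 189, 125 and 76.7 CPM against 25.9, 24.7 and 37.4 CPM (log2 difference 2.18 ± 0.35, adjusted p = 0.0027). Oas2, which makes the activator of RNase L, was at 73.4, 52.9 and 20.3 CPM against 3.39, 1.54 and 3.405 CPM (log2 difference 4.17 ± 0.56, adjusted p = 0.0014). In Ifit3, Stat2 and Oas2 each colony library lay above every line library, colony library 1 highest and colony library 3 lowest.

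Other interferon-stimulated genes were steeper across the colonies. Zbp1, a sensor of Z-form nucleic acid, was at 66.1, 12.6 and 6.21 CPM against 0.494, 0.175 and 0.416 CPM (log2 difference 6.33 ± 1.05, adjusted p = 0.0029). Mx1, a GTPase against viruses, was at 23.9, 1.49 and 0.754 CPM against 0.198, 0.146 and 0.294 CPM (log2 difference 5.38 ± 1.41, adjusted p = 0.016). Irf7, the factor that amplifies type I interferon, was at 267, 22.3 and 10.2 CPM against 2.798, 2.74 and 6.05 CPM (log2 difference 4.74 ± 1.25, adjusted p = 0.017). The ubiquitin-like Isg15 was at 74.7, 14.4 and 7.45 CPM against 4.28, 3.26 and 6.52 CPM (log2 difference 2.83 ± 0.84, adjusted p = 0.026), and without colony library 1 its difference was 1.22. Rsad2 was at 34.1, 1.84 and 1.75 against 1.78, 0.554 and 1.23 CPM (log2 difference 3.46 ± 1.23, adjusted p = 0.049), and was not called without colony library 1 (log2 difference 0.60 ± 0.51, adjusted p = 0.34). The summed macrophage identity level was likewise highest in colony library 1 and lowest in colony library 3, and its part in these genes was not tested.

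**Figure D4:**
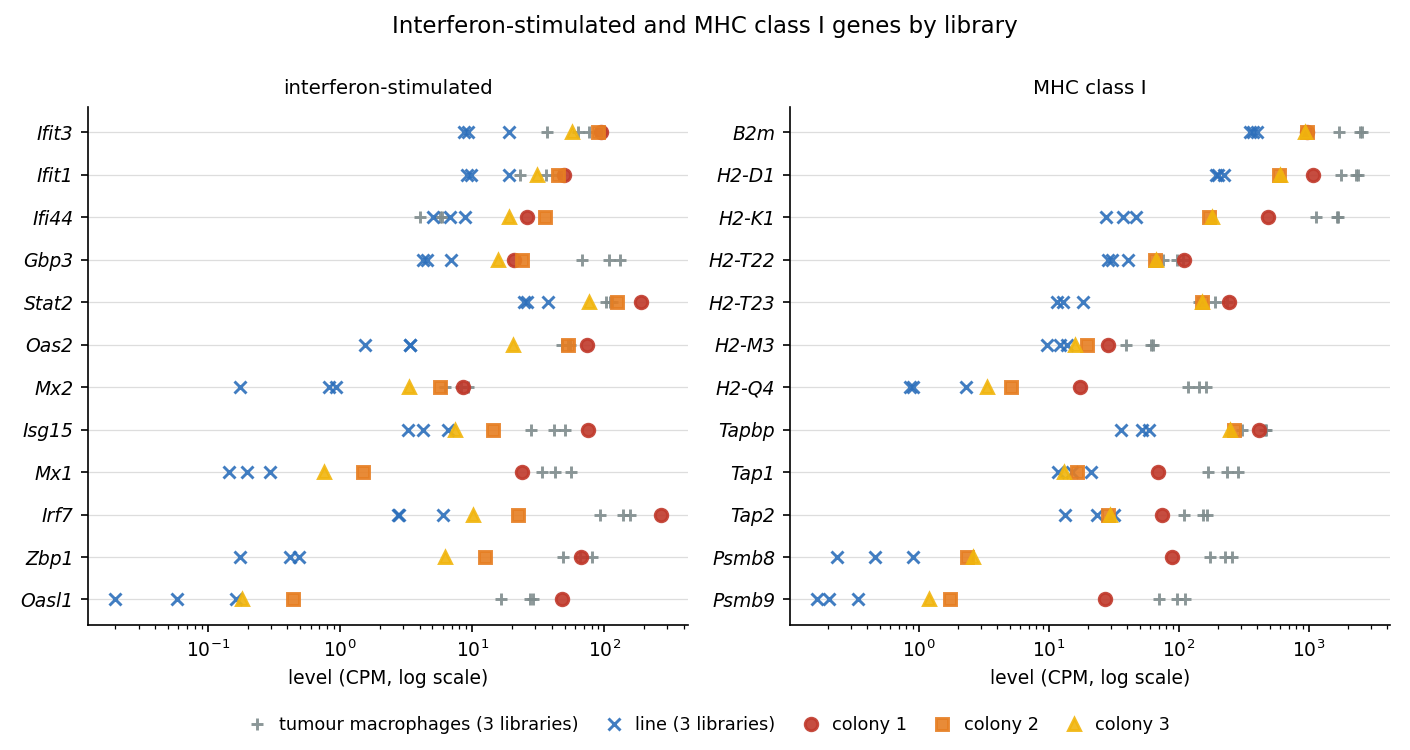
Levels of 12 interferon-stimulated genes (left) and 12 MHC class I genes (right) in each library (CPM, log axis; values under 0.02 drawn at 0.02), symbols as in the plots of colony genes. For Ifit3, Stat2, Oas2, B2m and H2-T23 all 3 colony libraries lie above the 3 line libraries.

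Genes of class I antigen presentation, which shows peptides of the cell to T cells, were higher in part. B2m, the light chain shared by class I molecules, was at 975, 977 and 939.8 CPM in the colonies and 369, 353 and 397 CPM in the line (log2 difference 1.39 ± 0.16, adjusted p = 0.00091), and the 3 colony libraries were nearly equal. H2-T23, a non-classical class I heavy chain, was at 242, 150.1 and 151 CPM against 11.5, 12.9 and 18.4 CPM (log2 difference 3.7 ± 0.30, adjusted p = 0.00043). Tapbp (tapasin), which loads peptide, was at 412, 268 and 248 CPM against 52.5, 36.02 and 58.7 CPM (log2 difference 2.69 ± 0.29, adjusted p = 0.00074). The immunoproteasome subunit Psmb8 was at 88.1, 2.34 and 2.62 CPM against 0.461, 0.233 and 0.906 CPM (log2 difference 5.89 ± 1.6, adjusted p = 0.019). Its partner Psmb9 was at 27.1, 1.73 and 1.21 CPM against 0.165, 0.204 and 0.343 CPM (log2 difference 5.42 ± 1.34, adjusted p = 0.013). Colony library 1 was highest in both. Of 15 tested genes of class I presentation, 10 were higher and 0 lower in the colonies, with a median log2 difference of 1.39, and without colony library 1 10 of 15 were higher and 2 lower (median 1.36). The peptide transporter Tap1, at 69.4, 16.6 and 13.03 against 11.8, 14.9 and 20.9 CPM, was not called (log2 difference 1.1 ± 0.63, adjusted p = 0.18). Class II genes summed to 101, 71.2 and 58.5 CPM in the colonies, 8.43 to 12.2 CPM in the line and 6140 to 18274 CPM in the macrophages. All colony sums were above the line and far under the macrophages. H2-DMb1, a subunit of the exchange factor that loads peptide onto class II, held the largest share, at 52.02, 49.2 and 45.6 CPM against 4.02, 3.35 and 4.26 CPM (log2 difference 3.68 ± 0.21, adjusted p = 0.00024). Its partner H2-DMa was at 14.1, 3.48 and 3.77 CPM against 0.889, 0.991 and 1.62 CPM (log2 difference 2.64 ± 0.64, adjusted p = 0.012). The class II chain H2-Ab1 was at 3.96, 0.409 and 0.0302 CPM in the colonies, 0.172 to 0.350 CPM in the line and 916 to 2928 CPM in the macrophages, and was not called (log2 difference 2.62 ± 1.29, adjusted p = 0.13). The checkpoint ligand Cd274 (PD-L1) was at 32.4, 19.3 and 10.2 CPM against 6.12, 4.84 and 5.32 CPM (log2 difference 1.96 ± 0.43, adjusted p = 0.0079).

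Lysosome and cathepsin genes had 25 tested members, of which 19 were higher and 0 lower (median log2 difference 1.53), and without colony library 1 19 of 25 were higher and 2 lower (median 1.14). Lgmn (legumain) was at 690, 456 and 499.6 CPM against 46.97, 49.8 and 66.7 CPM (log2 difference 3.36 ± 0.25, adjusted p = 0.00039). Cathepsin H (Ctsh) was at 401, 612 and 541 CPM against 39.99, 53.4 and 68.5 CPM (log2 difference 3.28 ± 0.26, adjusted p = 0.00043). Ctss, the cathepsin of antigen-presenting cells, was led by colony library 1, at 378, 90.6 and 3.53 CPM against 0.296, 0.495 and 0.294 CPM (log2 difference 8.8 ± 1.67, adjusted p = 0.0047). Atp6v0d2, a proton pump subunit of osteoclasts and macrophages, was at 3.98, 22.1 and 0.784 CPM and at 0 in every line library. Its mean over the colonies, led by colony library 2, was at least 315-fold higher when 3 counts are set over the line group.

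Complement genes showed 2 patterns, one common to the colonies and one of colony library 1. C1s1, which encodes the protease C1s, was at 276, 629.6 and 455 CPM in the colonies, 19.7, 15.4 and 27.9 CPM in the line and 0.311 to 2.36 CPM in the macrophages (log2 difference 4.45 ± 0.37, adjusted p = 0.00044). Its partner C1ra was at 145, 243 and 174 CPM against 14.7, 12.7 and 22.4 CPM (log2 difference 3.51 ± 0.30, adjusted p = 0.00045). C4b was at 33.6, 43.7 and 73.4 CPM against 0.955, 0.0874 and 0.465 CPM (log2 difference 6.67 ± 0.73, adjusted p = 0.00078). C1s1, C1ra and C4b were high in every colony library. C1qb, the recognition subunit made by macrophages, was at 256, 0 and 0 CPM, against 0.0987, 0.554 and 0.294 CPM in the line and 2372 to 3774 CPM in the macrophages. Among the complement genes, 8 of 11 tested were higher and 0 lower, and the median log2 difference was 4.45, and without colony library 1 5 of 9 were higher and 0 lower (median 1.58). In 3 of those tested the 3 line libraries did not all reach the filter's minimum.

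Summed over the 26 chemokines of the list, the colonies held 1753, 1581 and 1019 CPM and the line 401 to 608 CPM. Every colony library stood above every line library for 17 of them and below for 0, beside 30.0% and 30.6% of all genes tested. No count of calls is given, since 8 of the 16 tested did not have all 3 line libraries at the filter's minimum. Ccl11 was at 0.327, 0.409 and 2.38 CPM, with the line at 0. Ccl2, which draws monocytes, was at 246, 32.4 and 39.8 CPM against 0.987, 0.495 and 0.612 CPM in the line (log2 difference 7.3 ± 1.00, adjusted p = 0.0015). Ccl7, which also draws monocytes, was at 143, 14.2 and 21.2 CPM against 0.263, 0.291 and 0.245 CPM (log2 difference 7.83 ± 1.11, adjusted p = 0.0016). Ccl6 was at 144, 236 and 7.298 CPM against 0.0658, 0.117 and 0.0735 CPM (log2 difference 10.53 ± 1.48, adjusted p = 0.0016), with colony library 2 highest. Cxcl5, which draws neutrophils, was at 17.1, 49.7 and 39.6 CPM against 0.757, 0.641 and 0.490 CPM and 0 to 0.418 CPM in the macrophages (log2 difference 5.83 ± 0.47, adjusted p = 0.00043). Cxcl12, a chemokine that keeps haematopoietic progenitors in their niche, was at 278, 920 and 554 CPM against 561, 363 and 325 CPM (log2 difference 0.50 ± 0.41, adjusted p = 0.35), so that the groups overlapped. Ccl5 turned with colony library 1: it was at 95.5, 0.0293 and 0.0302 CPM against 0.625, 2.21 and 1.27 CPM (log2 difference 4.59 ± 2.29, adjusted p = 0.13), and without colony library 1 it was lower than the line (log2 difference -5.37 ± 0.89, adjusted p = 0.0012).

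Growth factors of the myeloid lineage and their receptors differed in both directions. Csf1, the ligand of Csf1r, was lower in the colonies at 198, 269 and 269 CPM against 599, 550 and 377 CPM (log2 difference -1.03 ± 0.23, adjusted p = 0.0084), and no colony library reached a line library. Csf3 was at 3, 0.322 and 0.543 CPM against 0.132, 0.0583 and 0.0490 CPM (log2 difference 4.07 ± 1.02, adjusted p = 0.014). Csf2 was near 0 throughout, at 0.127, 0.263 and 0.0302 CPM against 0.0329, 0.0874 and 0.0980 CPM. Csf2rb, the common beta chain for GM-CSF, IL-3 and IL-5, was at 156, 21.6 and 1.51 CPM against 0.0329, 0.0583 and 0.122 CPM (log2 difference 9.63 ± 1.89, adjusted p = 0.0053). Kitl, the ligand of Kit, was at 89.9, 350.1 and 403 CPM against 99.7, 163 and 231 CPM (log2 difference 0.78 ± 0.52, adjusted p = 0.25) and was called without colony library 1 (log2 difference 1.2 ± 0.29, adjusted p = 0.0074). Of the 14 members of this list that had values, 6 stood above every line library in all colonies and 1 below. Over all genes tested these shares were 30.0% and 30.6%. No count of calls is given, since 4 of the 9 tested did not have all 3 line libraries at the filter's minimum. Il33, an alarmin of epithelial and stromal cells, chosen after its values were seen, was at 28.6, 237 and 195 CPM against 1.81, 4.98 and 5.85 CPM (log2 difference 5.19 ± 0.84, adjusted p = 0.0026).

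Counted over the hypoxia and glycolysis genes, 12 of 23 tested members were higher and 1 lower, at a median log2 difference of 0.98, and without colony library 1 11 of 23 were higher and 2 lower (median 0.52). Car9, the carbonic anhydrase induced by HIF, was at 36.2, 81.7 and 50.2 CPM against 1.51, 1.05 and 4.75 CPM (log2 difference 4.53 ± 0.63, adjusted p = 0.0015). Adm (adrenomedullin) was at 2.53, 2.08 and 2.05 CPM against 0, 0 and 0.147 CPM (log2 difference 5.3 ± 0.92, adjusted p = 0.0033). Pdk1, which blocks entry of pyruvate into mitochondria, was at 126, 249 and 159 CPM against 28.2, 21.01 and 43.1 CPM (log2 difference 2.55 ± 0.34, adjusted p = 0.0014). Lactate dehydrogenase (Ldha) was at 1080, 733 and 595 CPM against 717, 781 and 787 CPM (log2 difference 0.10 ± 0.25, adjusted p = 0.75). Phosphoglycerate kinase (Pgk1) was at 566, 471 and 377 against 445, 475 and 484 CPM (log2 difference 0.04 ± 0.20, adjusted p = 0.89). Gapdh was lower at 45.9, 43.1 and 49.9 against 112, 98.3 and 99.2 CPM (log2 difference -1.13 ± 0.16, adjusted p = 0.0015), though its many processed copies make the count uncertain. Actb, often used as a reference, was at 3782, 695 and 622 CPM against 1439, 2051 and 1779 CPM (log2 difference -0.00 ± 0.68, adjusted p = 1), above the line in colony library 1 and below it in the others.

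What the colonies lacked was led by a small set of genes of the line. Serpinh1 (chr7:99345376-99353239) was at 0.309, 0.0585 and 0.0603 CPM in the colonies and 179.8, 143 and 108 CPM in the line (log2 difference -9.74 ± 0.60, adjusted p = 0.00031), with 0.746 to 1.12 CPM in the macrophages. Prr32 was at 0, 0.0293 and 0 CPM, which is 1 count over the 3 colonies, against 20.8, 46.6 and 30.9 CPM. Sis, the intestinal sucrase-isomaltase, was at 0.0182, 0.0585 and 0.0905 CPM against 16.8, 14.3 and 11.2 CPM (log2 difference -8.00 ± 0.52, adjusted p = 0.00036). Car6, a secreted carbonic anhydrase, was at 0.218, 0.175 and 0.181 CPM against 62.3, 59.9 and 50.5 CPM (log2 difference -8.16 ± 0.26, adjusted p = 3.5e-05). Among the colonies, Serpinh1 and Car6 were highest in colony library 1, above the level of 3 counts there (0.0630 CPM before TMM scaling). Cdh11, a mesenchymal cadherin, was at 0.327, 0.526 and 0.452 CPM against 28.5, 48.1 and 45.5 CPM (log2 difference -6.53 ± 0.35, adjusted p = 0.00022). P2rx3, an ATP-gated channel, was at 1.27, 0.556 and 1.42 CPM against 42.1, 55.8 and 67.5 CPM (log2 difference -5.63 ± 0.41, adjusted p = 0.00039). Fibin, a secreted protein, was at 0.127, 0.0585 and 0.241 CPM against 11.9, 18.4 and 13.7 CPM (log2 difference -6.65 ± 0.51, adjusted p = 0.00039). Cox6a2, the muscle form of a respiratory chain subunit, was at 0.491, 0.0293 and 0.151 CPM against 25.3, 16.03 and 15.7 CPM (log2 difference -6.25 ± 0.78, adjusted p = 0.0011). Scrn1 and Zbtb10 were also among the 12 largest falls, with log2 differences of -6.14 and -5.58.

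**Figure D5:**
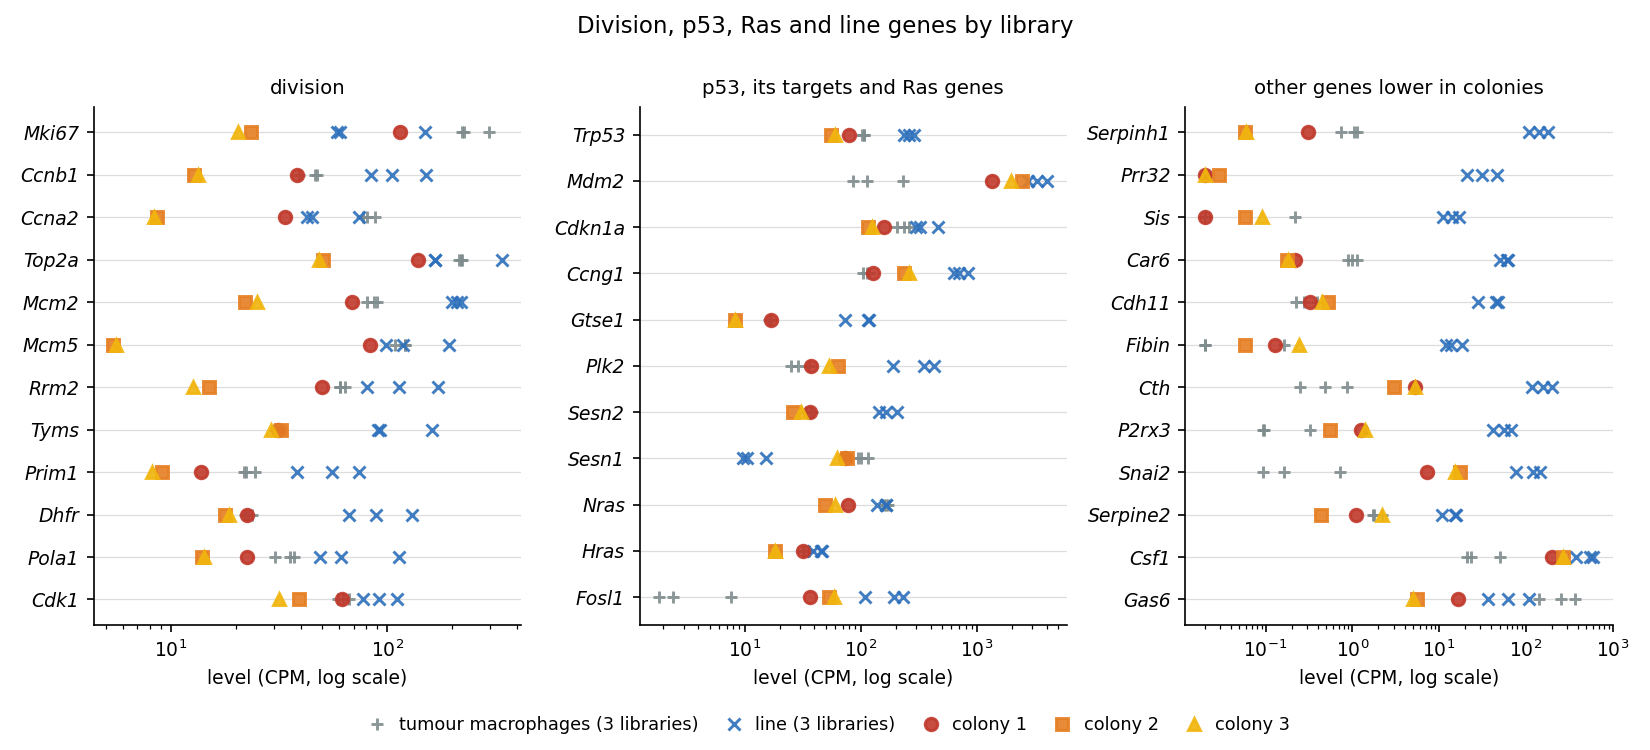
Levels of genes of division (left), of p53, its targets and Ras (middle) and of other genes lower in colonies (right) in each library (CPM, log axis; values under 0.02 drawn at 0.02), with colonies as filled symbols, line as blue crosses and tumour macrophages as grey plus signs. For Trp53, Sesn2, Prim1, Serpinh1, Cdh11 and Cth all 3 colonies lie below the line, and for Mki67 colony library 1 lies among the line libraries.

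Cth, cystathionine gamma-lyase, which makes cysteine, was at 5.34, 3.01 and 5.25 CPM in the colonies and 202, 156 and 116 CPM in the line (log2 difference -5.1 ± 0.34, adjusted p = 0.00036). Further genes of amino acid supply were looked at after Cth was seen, and are given as values. The transporter Slc7a5 was at 57.7, 28.2 and 41.3 CPM against 621, 523 and 459.6 CPM (log2 difference -3.63 ± 0.31, adjusted p = 0.00046). Asparagine synthetase (Asns) was at 87.7, 77.5 and 146 CPM against 552, 544 and 512 CPM (log2 difference -2.35 ± 0.26, adjusted p = 0.00078). Phgdh, the first enzyme of serine synthesis, was at 155, 102 and 138 CPM against 933, 892 and 783 CPM (log2 difference -2.69 ± 0.22, adjusted p = 0.00043). Trib3, which the stress factor Atf4 induces, was at 38.5, 15.8 and 31.2 CPM against 249.8, 299 and 274 CPM (log2 difference -3.24 ± 0.34, adjusted p = 0.0007). Ddit3, another of its targets, was at 66.02, 56.2 and 65.98 CPM against 213, 304 and 212 CPM (log2 difference -1.93 ± 0.20, adjusted p = 0.0007). Atf4 itself was at 234, 245 and 294 CPM against 541, 725 and 596 CPM (log2 difference -1.25 ± 0.18, adjusted p = 0.0019). In each of these genes the highest colony library was below the lowest line library. The labels name the stem cell medium for the colonies only, so medium and group cannot be told apart.

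Genes of replication and mitosis were lower, with more of them called once colony library 1 was left out. Of 28 tested replication genes driven by E2F, 0 were higher and 13 lower in the colonies, with a median log2 difference of -1.5, and without colony library 1 0 of 28 were higher and 25 lower (median -2.11). Mcm2, a subunit of the replicative helicase, was at 68.8, 22.1 and 25.1 CPM against 210.2, 199 and 219 CPM (log2 difference -2.4 ± 0.45, adjusted p = 0.0043). Prim1, the DNA primase, was at 13.8, 9.13 and 8.14 CPM against 74.1, 55.4 and 38.5 CPM (log2 difference -2.41 ± 0.33, adjusted p = 0.0014). Mcm5 was at 83.05, 5.41 and 5.58 CPM against 194, 118 and 98.2 CPM and was not called with colony library 1 (log2 difference -2.07 ± 1.03, adjusted p = 0.13) but was lower without it (log2 difference -4.64 ± 0.34, adjusted p = 3.7e-05). Among mitotic genes, 12 of 22 were lower and none higher with a median of -1.33, and without colony library 1 0 of 22 were higher and 22 lower (median -2.19). The cyclin Ccnb1 was at 38.4, 12.8 and 13.3 CPM against 150.4, 105 and 83.95 CPM (log2 difference -2.36 ± 0.49, adjusted p = 0.0064). The kinase Ttk was at 6.85, 3.36 and 2.77 against 23.9, 13.5 and 12.5 CPM (log2 difference -1.9 ± 0.44, adjusted p = 0.011). Mki67, the Ki-67 antigen of cycling cells, was at 114, 23.4 and 20.3 CPM against 149.9, 58.7 and 60.3 CPM (log2 difference -0.72 ± 0.71, adjusted p = 0.43), and without colony library 1 was lower (log2 difference -2.04 ± 0.41, adjusted p = 0.0031). In Mki67 colony library 1 lay between line libraries, and colony libraries 2 and 3 below all of them.

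Transcripts of Trp53 and of most listed p53 targets were lower. Trp53i11, another gene induced by p53, stood above every line library in all colony libraries and is given further on. Trp53 was at 78.8, 55.9 and 60.2 CPM in the colonies and 238, 289.7 and 258 CPM in the line (log2 difference -1.98 ± 0.20, adjusted p = 0.0006). Cdkn1a (p21), which halts the cycle on p53 activation, was at 160.3, 115 and 126 CPM against 326, 466 and 297 CPM (log2 difference -1.42 ± 0.24, adjusted p = 0.0029). P53 targets had 28 tested members, of which 3 were higher and 19 lower (median log2 difference -1.05), and without colony library 1 3 of 28 were higher and 21 lower (median -1.06). Gtse1, which is also a gene of dividing cells, was at 17.04, 8.31 and 8.26 CPM against 119, 116 and 73.4 CPM (log2 difference -3.16 ± 0.38, adjusted p = 0.00098). Bbc3 (Puma), which promotes apoptosis, was at 8.42, 3.63 and 3.65 against 27.1, 57.4 and 37.5 CPM (log2 difference -2.92 ± 0.45, adjusted p = 0.0022). Sesn2, a stress-induced brake on growth signalling, was at 36.4, 26.3 and 30.4 CPM against 164, 207 and 145 CPM (log2 difference -2.45 ± 0.22, adjusted p = 0.0005). The members higher in the colonies were Sesn1, Ddb2 and Fas. Sesn1, of the same family as Sesn2, was at 73.4, 76.05 and 61.97 CPM against 9.64, 10.5 and 15.3 CPM (log2 difference 2.6 ± 0.23, adjusted p = 0.0005). Ddb2, of DNA repair, was at 12.3, 19.4 and 12.4 against 5.13, 3.67 and 4.97 CPM (log2 difference 1.7 ± 0.29, adjusted p = 0.0032). The death receptor Fas was at 14.3, 12.96 and 12.8 against 5.003, 6.499 and 5.68 CPM (log2 difference 1.25 ± 0.24, adjusted p = 0.0046).

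Mdm2, the ubiquitin ligase that degrades p53, was a highly expressed gene of the line (chr10:117688875-117710758) and stayed high in the colonies. It was at 1338, 2449 and 1987 CPM in the colonies, 3305, 4055 and 2761 CPM in the line and 85.8 to 232 CPM in the macrophages (log2 difference -0.79 ± 0.28, adjusted p = 0.051), and without colony library 1 it was called lower (log2 difference -0.61 ± 0.21, adjusted p = 0.037). Every colony library was thus below the line and above every macrophage library. Cdkn2a, which encodes p16 and p19Arf, was at 43.3, 57.2 and 56.5 CPM in the colonies, 44.99, 77.2 and 85.6 CPM in the line and 3.89 to 14.5 CPM in the macrophages (log2 difference -0.38 ± 0.26, adjusted p = 0.25).

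Ras genes and their output were lower in part. Hras was at 31.9, 18.3 and 18.1 CPM against 38.8, 46.2 and 45.6 CPM (log2 difference -0.90 ± 0.27, adjusted p = 0.027). Nras was at 77.1, 48.99 and 60.3 CPM against 137, 165 and 165 CPM (log2 difference -1.3 ± 0.21, adjusted p = 0.0028). These counts do not separate a mutant allele or a transgene from the native gene. Among the genes of Ras and ERK output, 3 of 25 tested were higher and 12 lower, and the median log2 difference was -0.62, and without colony library 1 4 of 25 were higher and 13 lower (median -0.61). Fosl1, an AP-1 factor induced by ERK, was at 36.7, 52.9 and 58.6 CPM against 232, 193 and 109.8 CPM (log2 difference -1.84 ± 0.31, adjusted p = 0.003). The EGF receptor ligand Areg was at 16.1, 38.4 and 39.9 CPM against 98.2, 149 and 85.2 CPM (log2 difference -1.8 ± 0.37, adjusted p = 0.0064). Erbb3, a receptor of the EGF receptor family, was higher at 8.45, 4.45 and 7.48 CPM against 0.263, 0.379 and 1.05 CPM (log2 difference 3.59 ± 0.58, adjusted p = 0.0026). Phlda1 was higher at 119, 164 and 154 CPM against 53.9, 47.3 and 44.6 CPM (log2 difference 1.6 ± 0.18, adjusted p = 0.0008).

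Respiratory chain genes differed by smaller amounts. Counted over the oxidative phosphorylation genes, 0 of 26 tested members were higher and 9 lower, at a median log2 difference of -0.44, and without colony library 1 0 of 26 were higher and 16 lower (median -0.57). Atp5b, the catalytic subunit of ATP synthase, was at 816, 765 and 914 CPM against 1709, 2214 and 1911 CPM (log2 difference -1.2 ± 0.20, adjusted p = 0.0028). Atp5o was at 78.9, 40.1 and 43.9 against 108, 112 and 115 CPM (log2 difference -1.01 ± 0.28, adjusted p = 0.02). Of the Hox genes, which record position along the body axis, 4 of 17 tested were higher and 2 lower, with a median of 0.41, and without colony library 1 5 of 17 were higher and 2 lower (median 0.47). Neither share of higher members exceeds that over all genes tested, 26.0% and 30.2%. Hoxa9 was at 6.98, 12.5 and 9.32 CPM against 3.49, 3.29 and 2.62 CPM (log2 difference 1.63 ± 0.31, adjusted p = 0.0046), Hoxa3 at 9.47, 16.97 and 10.3 against 1.25, 1.52 and 2.45 CPM (log2 difference 2.83 ± 0.39, adjusted p = 0.0014), and Hoxd8 was lower at 0.0909, 0.146 and 0 against 2.27, 1.54 and 1.004 CPM (log2 difference -4.23 ± 0.77, adjusted p = 0.004).

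The genes by which 1 colony library departed most from the other 2 were set out library by library, as a description. Colony library 1 was highest for Marco, Slc13a3, Acod1, C1qb, Fcgr1 and C1qc, and Slc13a3, a carboxylate transporter, was at 678, 0.0585 and 0.0905 CPM. It was lowest for Sumo2, Cxcl15, Il33, A2m, Krt83 and Dkk2, of which Cxcl15, a chemokine of lung and gut epithelium, was at 3.84, 42.6 and 34.7 CPM with 0.0987 to 0.245 CPM in the line. Colony library 2 was highest for Atp6v0d2, Col3a1, Mmp2, Mmp12, Lrtm1 and Islr. Colony library 3 was highest for Penk, Enpp2, Tslp, Kng1, Dkk2 and Agt, of which Agt (angiotensinogen) was at 13.1, 5.29 and 48.97 CPM with 0.0329 to 0.122 CPM in the line.

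The same contrast in the SCCVII model, with 2 colony and 3 line libraries of C3H/HeJ origin in the first table, called 4338 of 15995 genes higher (27.1%) and 3159 lower (19.7%). Of the genes higher in HPV-negative MEER colonies, 1966 (52.8%) were also higher there, which is 45.3% of the SCCVII list, and 163 were lower. Of the genes lower, 1604 (51.1%) were also lower, 50.8% of the SCCVII list, and 181 were higher. The SCCVII colonies were split in the same way, with Ptprc at 113 and 3.78 CPM and Lyz2 at 13033 and 1031 CPM in their 2 libraries, against 0.912 to 1.303 and 12.2 to 14.3 CPM in their line. Sprr1a was at 80.01 and 72.5 CPM against 0.321 to 0.637 CPM, Cth at 5.08 and 8.43 CPM against 244 to 258 CPM and Trp53 at 67.6 and 75.6 CPM against 246 to 249 CPM.

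The difference between the models was tested as an interaction over the 11 libraries. It called 1573 genes (9.83%) more positive in HPV-negative MEER and 2135 (13.3%) more negative. Without colony library 1 these were 2621 and 3265, without HPV-negative line library 2 they were 1174 and 1289, without SCCVII colony library 1 they were 1026 and 1726, and without any 1 SCCVII line library 949 to 953 and 1222 to 1274. Serpinh1 was at 632 and 738 CPM in SCCVII colonies and 1309 to 1320 CPM in their line, and its change differed between the models (interaction -8.91 ± 0.57, adjusted p = 5.3e-05). Cdh11 was low in both SCCVII groups, at 0.234 and 0.180 CPM in colonies and 0.178 to 0.456 CPM in the line (interaction -6.03 ± 0.58, adjusted p = 0.00051). Prss35 was at 4.34 and 3.63 CPM against 0.199 to 0.290 CPM (interaction 5.46 ± 0.55, adjusted p = 0.00057), Tnn at 3.05 and 1.32 against 0.174 to 0.769 CPM (interaction 5.53 ± 0.85, adjusted p = 0.0027) and Aqp1 at 182 and 391 against 65.7 to 67.4 CPM (interaction 5.93 ± 0.61, adjusted p = 0.00057). For Prss35, Tnn and Aqp1 the difference was larger in HPV-negative MEER.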

How the data were processed

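Bulk mRNA of 23 samples was sequenced after RNeasy extraction, TapeStation quality control and TruSeq Stranded mRNA library preparation, per the labels' protocols. The authors deposited expected counts per Ensembl gene in 2 tables, 20 libraries in the first and the 3 HPV-negative MEER colonies in the second. The submitters' processing notes name FastQC, MultiQC, STAR 2.5.3a, RSEM 1.3.0 and the mm10 (GRCm38) build. Neither the annotation release nor the strand setting is given in the sources used here. TPM values that the authors deposited in the same tables were not used. RSEM shares reads that map to several genes, so near-identical copies have uncertain values.

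Of 36793 genes, 35243 had a symbol and position from GENCODE on GRCm38. Expected counts, of which 13.1% of values were not whole, were rounded. Genes were filtered by filterByExpr (minimum count 10, total 15) and scaled by TMM, and edgeR 4.0.16's quasi-likelihood test compared 3 colonies with 3 line aliquots, with Benjamini-Hochberg adjustment at 0.05 (R 4.3.3, limma 3.58.1). The common biological coefficient of variation was 34.6%. The SCCVII contrast and the interaction used 11 libraries. Standard errors are the log2 difference over the square root of F. The statistics were tested on simulated data with less spread between libraries than these hold, so their performance at the fitted spread was not tested. Other normalization, filters, DESeq2 1.42.0, all 23 libraries, a replicate block and each library left out were tried. Figures used matplotlib 3.10.9 on Python 3.11.15.

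The libraries, lists and genes were chosen with earlier results of these data known. Genes were named by rule: the 12 largest rises and falls among called, non-overlapping genes at 10 CPM or more in the higher group; up to 2 called members each way of a described list; 55 fixed genes; the 4 largest interactions each way; and the 6 genes highest or lowest in each colony library at 20 CPM or more. Outside this rule, and chosen after their values were seen, were Asns, Atf4, B2m, Blnk, C1ra, C1s1, Ccl11, Ccl2, Ccl5, Cd53, Ctsh, Cxcl5, Ddit3, Fap, Fas, Gabrg1, H2-T23, Ifit3, Il33, Irf7, Irf9, Isg15, Kitl, Krt7, Lcn2, Ldha, Lgmn, Lum, Mcm5, Mmp13, Mmp3, Mrpl23, Ms4a1, Nras, Oas2, Pax5, Pdk1, Pgk1, Phgdh, Rsad2, S100a9, Sesn2, Slc7a5, Sprr1a, Sprr2a2, Srpx2, Stat2, Tap1, Tapbp and Trib3, beside the listed genes present in 1 group only. The level of 3 counts covers counting error only, while the standard errors also hold the fitted spread among these libraries. Some genes are not reported here.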

Additional observations from a re-analysis of the deposited data

Results flagged for a closer look

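These genes had a colony-line difference that differed between HPV-negative MEER and SCCVII, by edgeR's interaction term over 11 libraries with Benjamini-Hochberg adjustment. Values are the HPV-negative MEER log2 difference minus that of SCCVII, ± SE. More positive in HPV-negative MEER were Mmp9, a gelatinase of neutrophils and macrophages, by 10.59 ± 3.38, adjusted p = 0.048, Ankrd33b by 7.27 ± 2.2, adjusted p = 0.04 and Nxf3 by 7.24 ± 2.05, adjusted p = 0.032. In each, 1 HPV-negative MEER colony library was far above the others: Mmp9 was at 228, 0.848 and 0.151 CPM in the HPV-negative MEER colonies, Ankrd33b at 5.95, 0.439 and 0.0302 CPM and Nxf3 at 0.255, 8.83 and 0.543 CPM. Without that library the difference was smaller and still called, at 3.33 (adjusted p = 0.0121) for Mmp9, 4.06 (adjusted p = 0.0179) for Ankrd33b and 4.26 (adjusted p = 0.0405) for Nxf3. When libraries were left out singly, the call was lost in 8 of 11 cases for Mmp9 and Ankrd33b and in 7 of 11 for Nxf3, each without a line library or an SCCVII library. Trp53i11, a gene induced by p53, was at 32.1, 40.4 and 15.9 CPM against 0.132, 0.204 and 0.955 CPM in the HPV-negative MEER line, and at 0.625 and 0.210 CPM against 1.53 to 2.07 CPM in SCCVII (8.03 ± 1.14, adjusted p = 0.0021).

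More negative in HPV-negative MEER was Perp, a desmosomal p53 target, at 76.98, 144 and 204 CPM against 211, 268 and 268 CPM in HPV-negative MEER and 14.3 and 0.690 CPM against 0 in SCCVII (-11.87 ± 2.25, adjusted p = 0.0097). Slc7a2, a transporter of arginine, was at 17.1, 54.2 and 48.04 CPM against 60.5, 64.9 and 66.9 CPM in HPV-negative MEER and 405 and 10.5 CPM against 0.0869 to 0.286 CPM in SCCVII (-11.14 ± 1.66, adjusted p = 0.0025). Ccbe1, needed for lymphatic growth, was at 2.27, 5.82 and 3.89 CPM against 30.2, 10.7 and 11.4 CPM in HPV-negative MEER and 32.5 and 15.8 CPM against 0.0285 to 0.107 CPM in SCCVII (-11.00 ± 0.94, adjusted p = 0.00031). Cobl, an actin nucleator, was at 1.67, 1.23 and 3.08 CPM against 14.4, 12.7 and 11.2 CPM in HPV-negative MEER and 0.156 and 1.74 CPM against 0 in SCCVII (-10.83 ± 1.59, adjusted p = 0.004). For Perp and Cobl the SCCVII line is at 0, so the size depends on the prior count. The other members with such a difference were Serpinh1 (-8.91 ± 0.57, adjusted p = 5.3e-05), Cdh11 (-6.03 ± 0.58, adjusted p = 0.00051), Aqp1 (5.93 ± 0.61, adjusted p = 0.00057), Prss35 (5.46 ± 0.55, adjusted p = 0.00057) and Tnn (5.53 ± 0.85, adjusted p = 0.0027).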

How the results depend on the processing

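Groups of 3 limit precision, the 3 line libraries are aliquots, and genes at a few counts were tested only where filterByExpr kept them. The count of genes was 3688 higher and 3193 lower with DESeq2 size factors and 4051 and 3619 with DESeq2's own test. Called genes with at least a 2-fold change numbered 3054 higher and 1804 lower. Leaving out each library in turn gave 2122 to 4406 genes higher and 1918 to 4298 lower. For the interaction it gave 949 to 2621 more positive and 1222 to 3265 more negative. Without a filter on low counts 1376 were more negative in the interaction.

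Genes present in colonies only numbered 49 at 5 CPM against under 0.5, 42 at 10 against under 1 and 1 at 10 against under 0.1, and genes present in the line only 17, 10 and 2. With each library left out the colony-only count was 19 to 36. The percent of line transcripts in colony library 1, 2 and 3 was 2.06%, 3.39% and 23.3% when the macrophages had to be under 0.5 CPM. It was 7.57%, 13.6% and 17.4% with 50 CPM or more in the line, and 49.8%, 90.1% and 89.5% without macrophage library 4.

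Over 175 named genes and their alternatives, 2088 of 2243 values kept direction and side of the threshold, 118 no longer passed it and 36 newly did. Ccl5 ran from -5.37 without colony library 1, where it reversed, to 5.17 without colony library 2. With the replicate number as a block, 3360 genes were higher and 2922 lower. Deviations of same-numbered libraries correlated at 0.0794, 0.121 and -0.0134, and those of differently numbered libraries at -0.135 to 0.114. With 3 libraries in a group this cannot decide whether the numbers pair the samples.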
